A study of Mus musculus with 18 samples.

Results

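The regulators of G protein signalling (RGS) examined here are 9 genes chosen by name, *Rgs1*, *Rgs2*, *Rgs3*, *Rgs10*, *Rgs12*, *Rgs14*, *Rgs16*, *Rgs18* and *Rgs19*, out of 22708 genes in the deposited table. RNA was sequenced in bulk from eosinophils sorted from the small intestine of C57BL/6 mice (written C57/BL6 in the labels) as CD11b+MHC-II-SiglecF+SSChi cells. The 18 samples comprised 6 from wildtype mice (WT), 6 labelled Ahr-KO and 6 labelled Ahrr-KO, each with 3 males and 3 females, and no treatment or age is given in the labels. *Ahr* encodes the aryl hydrocarbon receptor, a ligand-activated transcription factor, and *Ahrr* encodes its repressor. According to the study's methods the WT and *Ahr*-deficient mice were neither littermates nor housed together, so litter, housing and genotype cannot be told apart. The methods do not describe the mice labelled Ahrr-KO.

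Receptors coupled to heterotrimeric G proteins guide eosinophils into tissue and tell them of chemokines, lipid mediators, complement fragments and nucleotides. An activated receptor loads the G protein alpha subunit with GTP, and RGS proteins end that state by speeding up GTP hydrolysis, most of them on the Gi and Gq classes. The R4 subfamily consists mainly of small proteins with little besides the RGS domain. Larger members of the R12 subfamily add domains that tie G protein signalling to other pathways, and RGS19 belongs to the RZ subfamily. In leukocytes RGS proteins are best known for setting how strongly and for how long a cell responds to chemoattractants.

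Of the 9 members, 5 belong to R4, 3 to R12 and 1 to RZ. *Rgs2*, *Rgs1* and *Rgs18* lie in a stretch of 776090 bases on chromosome 1 (RefSeq, GRCm38.p6) that holds 5 protein-coding genes, all of them RGS genes, with *Rgs13* and *Rgs21* as the others. *Rgs16* follows 8964925 bases after *Rgs18* on the same chromosome. None of the 9 lies on chromosome 12 with *Ahr*, and *Rgs14* shares chromosome 13 with *Ahrr* at a distance of 18826430 bases.

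The RefSeq promoter table (GRCm38.p6, 250 bases before to 50 after a start) held 10 promoters of 6 members, namely *Rgs2*, *Rgs3*, *Rgs10*, *Rgs12*, *Rgs16* and *Rgs19*, and had no entry for *Rgs1*, *Rgs14* or *Rgs18*. The promoters of *Rgs2* (chr1:144004100-144004399, minus strand) and *Rgs10* (chr7:128418123-128418422, minus strand) are shown because these members passed the test between genotypes in opposite directions. Capitals mark GCGTG, the core letters of the element that AHR binds, read on either strand.
Rgs2: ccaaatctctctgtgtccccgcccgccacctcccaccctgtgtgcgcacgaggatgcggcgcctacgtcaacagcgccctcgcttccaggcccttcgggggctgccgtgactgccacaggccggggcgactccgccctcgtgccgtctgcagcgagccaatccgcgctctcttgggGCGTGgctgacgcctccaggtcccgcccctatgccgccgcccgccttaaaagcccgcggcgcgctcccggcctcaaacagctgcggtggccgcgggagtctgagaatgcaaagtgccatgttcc
Rgs10: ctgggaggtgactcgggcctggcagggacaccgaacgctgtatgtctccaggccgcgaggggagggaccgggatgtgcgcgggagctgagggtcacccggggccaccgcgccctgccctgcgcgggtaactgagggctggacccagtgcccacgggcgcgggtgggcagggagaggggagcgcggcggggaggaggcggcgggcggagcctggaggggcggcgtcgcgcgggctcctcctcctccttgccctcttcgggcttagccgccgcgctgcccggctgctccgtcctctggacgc
*Rgs2* holds GCGTG at position -74 from the start, and *Rgs10* holds none in this window. GCGTG occurred in 4 of the 10 member promoters (*Rgs2*, *Rgs16* and a pair of *Rgs19* promoters) and in 10639 of all 32851 promoters (32.4%). TGACG, the core of cAMP response elements, was found at positions -185 and -67 of *Rgs2*, in 2 of the 10 member promoters and in 20.8% of all promoters. TGANTCA, the AP-1 element, was found in 1 member promoter, the downstream one of *Rgs12*, and in 7.81% of all. Both strands were searched for each motif, and no match to 1 motif overlapped a match to another. A match describes letters and not a bound site.

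The targeted genes were checked in every sample before the members. *Ahr* lay at 13.40, 13.76 and 14.40 (lowest, median and highest variance-stabilized log2 value of 6) in WT, at 14.15, 14.55 and 14.67 in the samples labelled Ahr-KO, and at 13.03, 13.51 and 14.42 in those labelled Ahrr-KO. Its transcript was thus not lower under the Ahr-KO label. The difference from WT was 0.61 (SE 0.19, adjusted p = 0.0557, limma). *Ahrr* lay between 9.79 and 10.39 in WT and between 9.95 and 10.93 in the samples labelled Ahrr-KO, where it was not lower either (difference 0.28, SE 0.18, adjusted p = 0.683). A count over the whole gene does not check a deletion whose position is not given, and the labels are used as given. Transcripts that depend on AHR separated the samples labelled Ahr-KO from WT. *Ahrr* had between 0 and 10 counts per sample under the Ahr-KO label and between 550 and 1024 in WT, and *Cyp1b1*, which encodes a cytochrome P450 and is a classic AHR target, had between 1 and 5 counts and between 218 and 917. The samples labelled Ahrr-KO overlapped WT for *Cyp1b1*, with between 553 and 1339 normalized counts against 349 to 1134 (difference 0.41, adjusted p = 0.707).

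Of 10 eosinophil markers 6 were above the minimum mean, namely *Siglecf*, *Ccr3*, *Il5ra*, *Adgre1*, *Prg2* and *Alox15*, and *Ear6* was at 0 in at least 9 samples. *Alox15*, a lipoxygenase gene and the most abundant of the list, supplied 44.3% of its summed level. That sum lay between 31174 and 47130 normalized counts in WT, between 45748 and 57838 under the Ahr-KO label and between 17575 and 47591 under the Ahrr-KO label. Of these markers *Prg2*, which encodes a granule protein (2.30, adjusted p = 3.47e-07), and *Alox15* (0.58, adjusted p = 0.023) were called higher under the Ahr-KO label than in WT. The lowest sums belonged to Ahrr-KO M3 (17575) and Ahrr-KO F3 (26222). These samples also carried the highest sums of 6 fibroblast markers, 1626 and 920 normalized counts, against at most 202 in any WT sample and at most 99.3 in any sample labelled Ahr-KO. Of the fibroblast markers, *Col3a1* was the most abundant, and *Lum* was at 0 in at least 9 samples. The sum of 9 epithelial markers, most abundant *Lyz1*, reached 51260 in Ahrr-KO M1 and 46285 in Ahrr-KO M3, where WT samples lay between 6726 and 19074. In bulk samples fewer cells of a type and less RNA per cell cannot be told apart.

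**Figure D1:**
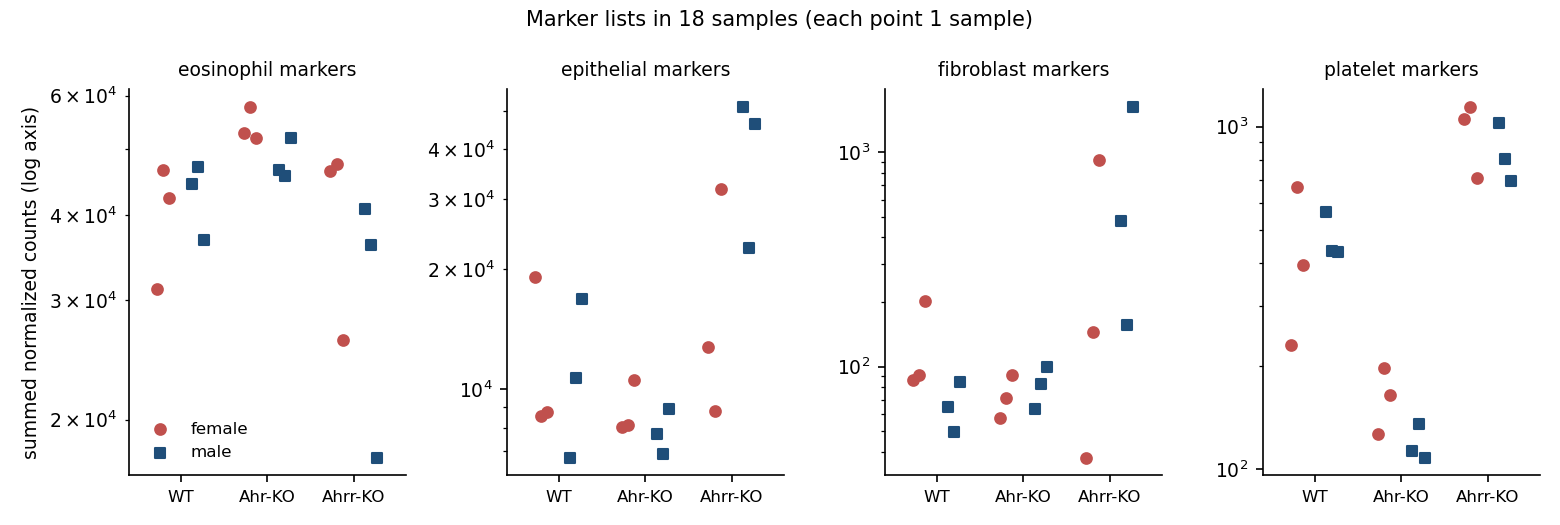
Summed normalized counts of the eosinophil, epithelial, fibroblast and platelet marker lists (log axes) in 18 samples by genotype label, each point 1 sample, circles female and squares male. Eosinophil sums of samples labelled Ahrr-KO run from 17575 to 47591, and platelet sums lie between 108 and 197 under the Ahr-KO label against 230 to 667 in WT. *Ppbp* supplies 69.6% of the platelet sum, and without it these ranges are 106 to 192 and 93.2 to 194.

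Levels of the members spanned more than 3 orders of magnitude on a scale of normalized counts per kilobase of exon. *Rgs1* had a mean of 5744 over 18 samples, rank 23 of 20295 genes with a length, followed by *Rgs2* with 2319 (rank 95) and *Rgs19* with 490 (rank 566). Mean levels of 135 for *Rgs18*, 128 for *Rgs14*, 86.8 for *Rgs10* and 70.2 for *Rgs3* came next, then 4.81 for *Rgs12* and 1.82 for *Rgs16*. *Rgs1* stood above *Rgs2* in 18 of 18 samples although their ranges over samples overlap. The order in the middle turned with the label. *Rgs18* was above *Rgs14* in 6 of 6 samples labelled Ahr-KO and in 2 of the other 12, and *Rgs10* was above *Rgs3* in 0 of 6 samples labelled Ahr-KO and in 12 of the other 12. By raw share, unadjusted for length, *Rgs1* held 78.0% and *Rgs2* 16.4% of all normalized counts that the members received. The order in the middle depended on the length adjustment. By raw share *Rgs3* (1.5%) and *Rgs14* (1.1%) stood above *Rgs18* (0.5%) and *Rgs10* (0.3%).

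**Figure D2:**
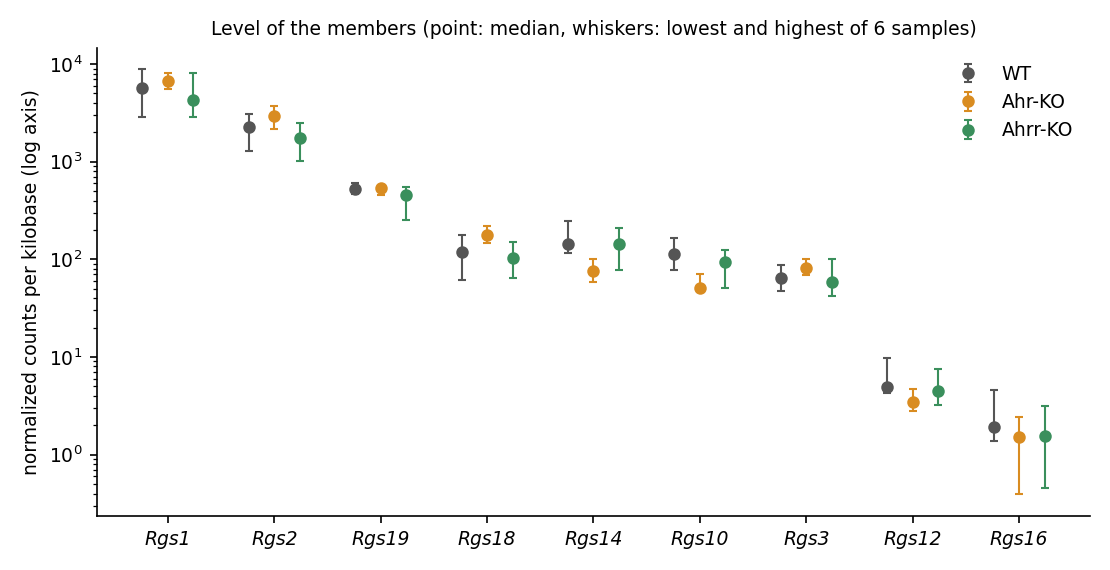
Normalized counts per kilobase of exon (log axis) for the 9 members in order of their mean, with the median (points) and the lowest and highest of 6 samples (whiskers) per genotype label. *Rgs1* and *Rgs2* lead under each label, *Rgs12* and *Rgs16* are lowest, and *Rgs14* and *Rgs10* drop under the Ahr-KO label.

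Between the samples labelled Ahr-KO and WT, 4 of the 8 members tested were called, where 1003 of 11346 genes (8.84%) were called (limma, sex as covariate, adjusted p below 0.05). *Rgs16*, the member left untested, lay below the minimum mean. The called members were *Rgs2* and *Rgs18*, higher, and *Rgs10* and *Rgs14*, lower, under the Ahr-KO label. The median absolute log2 difference was 0.39 over the 8 members and 0.16 over all genes tested, and the median differences were 0.12 and 0. Values of 2 members, *Rgs10* and *Rgs14*, did not overlap between the groups, as for 4.51% of the genes tested. The count over all genes was 623 without Ahr-KO F1. Cell markers moved in this comparison. Called higher under the Ahr-KO label were 2 of 6 eosinophil and 1 of 4 neutrophil markers tested. Called lower were 1 of 6 macrophage and dendritic, 1 of 2 platelet and 1 of 3 endothelial markers. So were 1 of 9 epithelial and 3 of 7 pancreatic acinar markers. Of 15 immediate early genes 1 was called higher and 1 lower. The part of cell composition in the member differences was not tested.

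**Figure D3:**
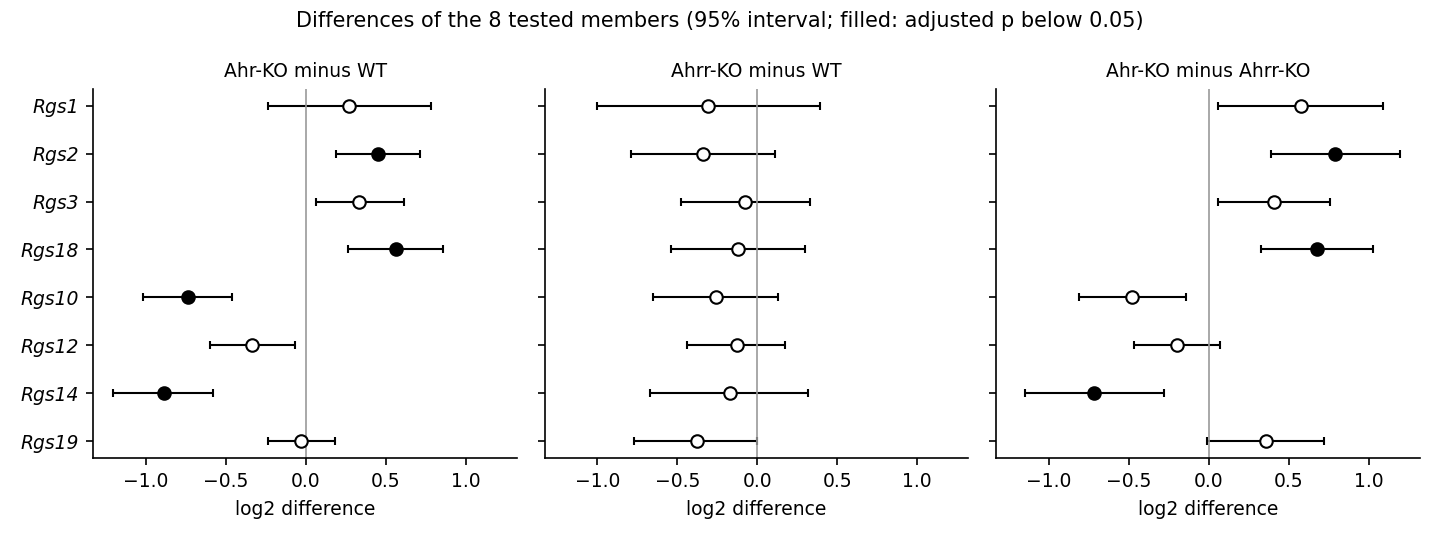
Log2 differences of the 8 tested members with 95% intervals in the 3 comparisons of genotype labels, filled points passing an adjusted p of 0.05. In Ahr-KO minus WT the called R4 members lie right of 0 (0.45 and 0.56) and the called R12 members left of it (-0.74 and -0.89), and in Ahrr-KO minus WT no point is filled.

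*Rgs1*, of the R4 subfamily, restrains chemokine-driven migration of lymphocytes. Its log2 values were 14.30, 15.27 and 15.92 (lowest, median and highest of 6) in WT, 15.22, 15.50 and 15.78 under the Ahr-KO label, and 14.30, 14.85 and 15.78 under the Ahrr-KO label. WT covered the whole range of the samples labelled Ahr-KO, with its lowest and highest values both in females. The difference between Ahr-KO and WT was 0.27 (SE 0.24, adjusted p = 0.54), and it was -0.18 after quantile normalization, 0.08 without WT F1 and 0.44 without WT F2. Within genotype and sex the SD of *Rgs1* was 0.45, larger than that of 91.3% of the genes tested, the widest spread among the members.

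*Rgs2* encodes an RGS protein with a preference for Gq, and its transcription responds quickly to many stimuli. In WT its log2 values were 12.21, 12.97 and 13.46 (lowest, median and highest of 6), in the samples labelled Ahr-KO 12.95, 13.37 and 13.73, and in those labelled Ahrr-KO 11.87, 12.62 and 13.15. WT and the samples labelled Ahr-KO split by sex. WT males lay between 13.30 and 13.46 and WT females between 12.21 and 12.64, while males labelled Ahr-KO lay between 13.52 and 13.73 and females between 12.95 and 13.23. Within each sex every sample labelled Ahr-KO was above every WT sample, although the groups overlap when the sexes are pooled. In each sex the exact two-sided permutation p was 0.1, the smallest that 3 against 3 samples can give. The share of all genes that separate within a sex is not given. The difference between Ahr-KO and WT was 0.45 (SE 0.12, adjusted p = 0.0328), with 3 of 6 samples labelled Ahr-KO above every WT sample. The call ended without the sex covariate (adjusted p = 0.244), with no minimum mean (0.0585), with all 18 samples in the fit (0.176), without WT F3 and Ahr-KO F3, left out after the data had been seen (0.0954), and when 1 of 8 samples was left out. Those samples and the adjusted p without each were WT F1 (0.0537), WT F3 (0.0643), WT M3 (0.0558), Ahr-KO F1 (0.1), Ahr-KO F2 (0.0779), Ahr-KO F3 (0.0541), Ahr-KO M1 (0.0572) and Ahr-KO M3 (0.0679). The call also ended with the replicate number as a block in place of sex (adjusted p = 0.0658). Over all 23 alternatives the adjusted p ran from 0.00802 to 0.244 and the difference from 0.37 to 0.50.

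*Rgs18* encodes an R4 protein known from platelets and megakaryocytes, and is found in other blood cells. Its log2 values were 7.53, 8.22 and 8.71 (lowest, median and highest of 6) in WT, 8.50, 8.73 and 9.0 under the Ahr-KO label, and 7.57, 8.09 and 8.51 under the Ahrr-KO label. The samples labelled Ahr-KO all sat in the upper part of the WT range or above it, and the low WT values, 7.53 to 7.96, were those of the 3 females. The difference between Ahr-KO and WT was 0.56 (SE 0.14, adjusted p = 0.0222), and 3 of 6 samples labelled Ahr-KO exceeded every WT sample. Within sexes it was 0.91 in females, without overlap, and 0.21 in males, with overlap. The call was lost with voom on counts (adjusted p = 0.0547) and with no minimum mean (0.0746). It was lost without the sex covariate (0.0681) and with all 18 samples in the fit (0.0792). So it was without WT F3 (0.0525), Ahr-KO F1 (0.0631), Ahr-KO F2 (0.0602) or Ahr-KO F3 (0.0507). Leaving out WT F3 and Ahr-KO F3 together, after the data had been seen, ended it too (0.0947). The adjusted p ran from 0.00636 to 0.0947 over 23 alternatives. The summed level of 6 platelet markers went the other way through a single gene, *Ppbp*, which encodes a platelet chemokine precursor and supplied 69.6% of the sum. The sum lay between 108 and 197 normalized counts under the Ahr-KO label, between 230 and 667 in WT and between 693 and 1144 under the Ahrr-KO label, and without *Ppbp* between 106 and 192, 93.2 and 194, and 106 and 233. *Gp1bb* was at 0 in at least 9 samples. The part of platelet RNA in the *Rgs18* values was not tested.

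*Rgs3*, an R4 gene with long and short protein forms, ranged from 9.17 to 9.98 in WT, from 9.65 to 10.18 under the Ahr-KO label and from 9.01 to 10.19 under the Ahrr-KO label (log2). The difference between Ahr-KO and WT was 0.33 (SE 0.13, adjusted p = 0.128), and 3 of 6 samples labelled Ahr-KO were above every WT sample. *Rgs16*, an R4 gene induced by activation in lymphocytes, had between 1 and 9 counts in every sample of the 3 groups. It was not tested at that level, and fitted with no minimum mean it gave -0.15 for Ahr-KO against WT (adjusted p = 0.521).

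**Figure D4:**
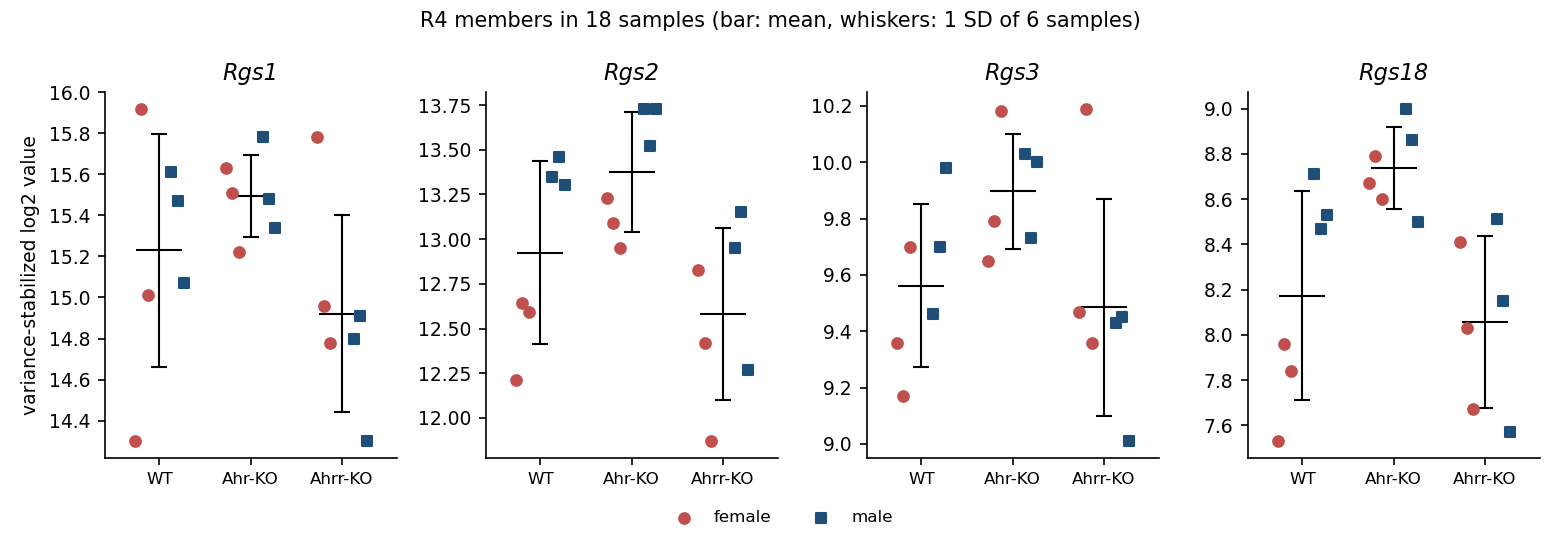
Variance-stabilized log2 values of 4 R4 members in 18 samples by genotype label, circles female and squares male, with the mean and 1 SD of 6 samples. *Rgs2* males lie above females in WT (13.30 to 13.46 against 12.21 to 12.64) and under the Ahr-KO label (13.52 to 13.73 against 12.95 to 13.23), and *Rgs18* under the Ahr-KO label starts at 8.50.

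*Rgs10* encodes a small R12 protein that acts on Gi and is known for damping inflammatory activation of microglia and macrophages. Its log2 values were 7.59, 7.99 and 8.42 (lowest, median and highest of 6) in WT, 7.11, 7.18 and 7.49 under the Ahr-KO label, and 7.18, 7.77 and 8.10 under the Ahrr-KO label. Every sample labelled Ahr-KO was below every WT sample, in each sex. The difference between Ahr-KO and WT was -0.74 (SE 0.13, adjusted p = 0.00191), from a mean of 195 to 94 normalized counts. The call held in all 22 alternatives in which the gene was tested, with adjusted p between 9.80e-04 and 0.0159 and differences between -1.03 and -0.65. *Rgs10* was not tested with a minimum mean of 3.

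*Rgs14* encodes an R12 scaffold with an RGS domain, Ras-binding domains and a GoLoco motif that holds Gi in its inactive form, best known from neurons of the hippocampus. In WT its log2 values were 9.12, 9.41 and 10.11 (lowest, median and highest of 6), in the samples labelled Ahr-KO 8.28, 8.58 and 8.94, and in those labelled Ahrr-KO 8.60, 9.36 and 9.90. WT and Ahr-KO values did not overlap, and the samples labelled Ahrr-KO spread over both ranges. The difference between Ahr-KO and WT was -0.89 (SE 0.15, adjusted p = 0.0011), with means of 331 and 678 normalized counts. All 23 alternatives kept the call, with adjusted p between 9.10e-04 and 0.0127 and differences between -1.01 and -0.78.

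*Rgs12*, another R12 gene whose product carries a GoLoco motif as well, had few reads, with between 21 and 104 counts per sample. Its log2 values ran from 6.48 to 7.13 in WT and from 6.22 to 6.54 under the Ahr-KO label, and 5 of 6 samples labelled Ahr-KO lay below every WT sample. Within each sex the groups did not overlap (-0.19 in males and -0.48 in females). With the sexes together the difference of -0.34 (SE 0.12) missed the threshold (adjusted p = 0.106). On the scale of log2 of the normalized count plus 1 it was -0.67, since variance stabilization shrinks differences at low counts, and the adjusted p was 0.108. *Rgs19* encodes an RZ protein that acts on Gi. It was the steadiest of the members between WT (10.12 to 10.47) and Ahr-KO (10.08 to 10.38), with a difference of -0.03 and a 95% interval from -0.24 to 0.18 (adjusted p = 0.899), whose sign turned without WT F3 (0.02), WT M3 (0.01), Ahr-KO F1 (0.00402) or Ahr-KO M2 (0.02).

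**Figure D5:**
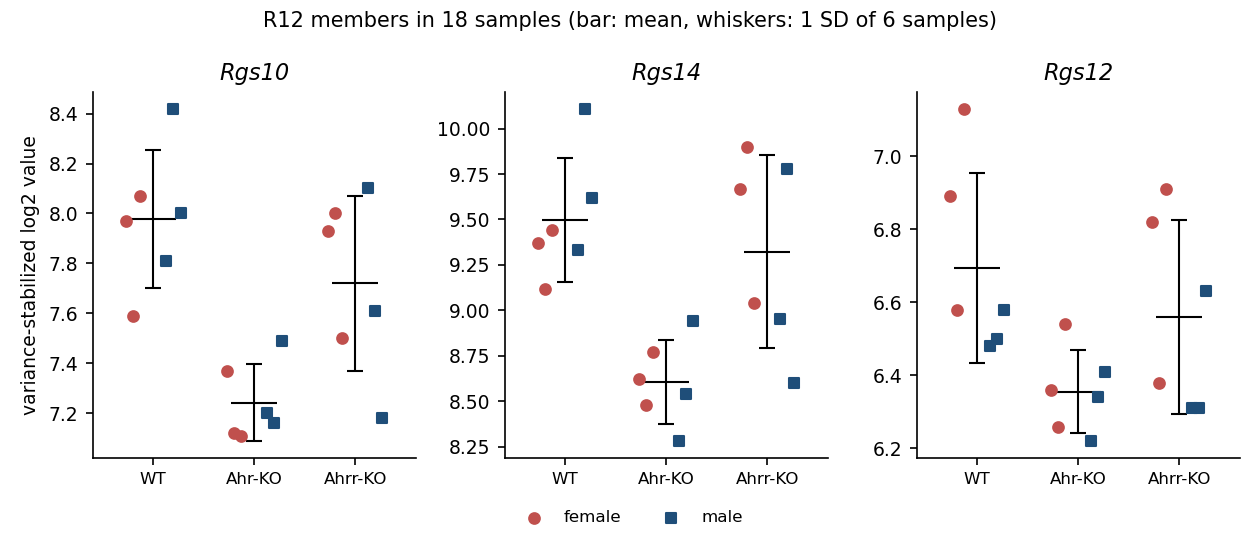
Variance-stabilized log2 values of the 3 R12 members in 18 samples by genotype label, circles female and squares male, with the mean and 1 SD of 6 samples. For *Rgs10* (7.11 to 7.49) and *Rgs14* (8.28 to 8.94) all samples labelled Ahr-KO lie below all WT samples (7.59 to 8.42 and 9.12 to 10.11). *Rgs12* overlaps with the sexes pooled and does not within either sex.

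Between the samples labelled Ahrr-KO and WT, limma called 0 of the 8 members tested, where 9 of 11546 genes (0.0779%) were called. At an unadjusted p below 0.05 there were 1 member, *Rgs19*, and 853 genes, and voom called 0 members. All 8 differences were negative, with a median of -0.22 against 0.01 over all genes tested. In males each of the 8 was negative, while in females *Rgs1* (0.10), *Rgs3* (0.26), *Rgs14* (0.23) and *Rgs18* (0.26) were positive. With the sexes pooled no member separated the groups without overlap, as 0.459% of genes did. Among males, 3 against 3, *Rgs1* (-0.71), *Rgs2* (-0.58), *Rgs3* (-0.42) and *Rgs19* (-0.5) did not overlap. Each had an exact two-sided permutation p of 0.1, the smallest that 3 against 3 samples can give. Among females every member overlapped. The share of all genes that did not overlap within a sex is not given for this comparison. In another comparison of 3 against 3 samples, WT males against WT females, 9.01% of genes did not overlap. *Rgs19* had the largest of the 8 pooled differences, -0.38 (SE 0.18, adjusted p = 0.669), with 4 of 6 samples labelled Ahrr-KO below every WT sample. For 6 of the 8 members the lowest value under the Ahrr-KO label was that of Ahrr-KO M3, and for *Rgs2* it was that of Ahrr-KO F3, the samples with the lowest eosinophil sums (17575 and 26222) and the highest fibroblast sums (1626 and 920). Without Ahrr-KO F3, M1 and M3, left out after the data had been seen, *Rgs2* (0.01), *Rgs3* (0.16), *Rgs14* (0.33) and *Rgs18* (0.11) were no longer lower while *Rgs12* (-0.25), *Rgs10* (-0.13) and *Rgs19* (-0.09) were still lower. *Rgs3* was 0.02 without WT M3 and 0.02 without Ahrr-KO M3, and *Rgs18* was 0.04 without Ahrr-KO M3. Neutrophil markers set all 6 samples apart, with sums between 1974 and 4712 normalized counts against 645 to 929 in WT. Of the 4 tested, 3 were called higher, *Csf3r*, *S100a8* and *S100a9*, named after their values were seen. The list has 8 genes, and 4 of them, *Ly6g*, *Camp*, *Mpo* and *Elane*, were at 0 in at least 9 samples. The part of other cells' RNA in the member values was not tested beyond leaving out those samples. Single samples moved the count of 9 genes as well, to 25 without Ahrr-KO F1, to 5 without Ahrr-KO F3, and to 4 without WT F1, WT F2, WT M2, WT M3, Ahrr-KO F2, Ahrr-KO M2 or Ahrr-KO M3.

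The direct comparison of the mutant labels, which shares its samples with the comparisons against WT, called 3 of 8 members, where 1708 of 11474 genes (14.9%) were called. *Rgs2* was higher under the Ahr-KO label than under the Ahrr-KO label by 0.79 (SE 0.19, adjusted p = 0.0154), and *Rgs18* by 0.68 (SE 0.17, adjusted p = 0.0166). *Rgs14* gave -0.72 (SE 0.20, adjusted p = 0.0316) and *Rgs10* gave -0.48 (SE 0.16, adjusted p = 0.0532). No member separated the groups without overlap, as 4.61% of genes did, but 5 of 6 samples labelled Ahr-KO lay above every sample labelled Ahrr-KO for *Rgs18* and 4 of 6 for *Rgs2*. Without Ahrr-KO F3, M1 and M3 there were 626 genes and again 3 members, *Rgs18* (0.53, adjusted p = 0.0396), *Rgs14* (-1.17, adjusted p = 1.58e-04) and *Rgs10* (-0.59, adjusted p = 0.024), while *Rgs2* (0.48) had an adjusted p of 0.0667. With no minimum mean no member was called. Cell markers moved in this comparison too. *Siglecf* (0.72), *Il5ra* (0.75), *Alox15* (0.79) and *Prg2* (2.07), 4 of 6 eosinophil markers tested, were called higher under the Ahr-KO label, and 3 of 4 neutrophil and 3 of 9 epithelial markers tested were called lower (*Csf3r*, *S100a8*, *S100a9*, *Krt8*, *Epcam* and *Lyz1*), named after their values were seen. The part of cell composition in the member differences was not tested.

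Single samples decided calls in this comparison. *Rgs14* was lost without Ahr-KO F1 (adjusted p = 0.0676), Ahr-KO F2 (0.0728), Ahr-KO M1 (0.075), Ahr-KO M2 (0.0581) or Ahrr-KO M2 (0.0521), and after median centring (0.0509). *Rgs10* was called with all 18 samples in the fit (adjusted p = 0.0486) and without Ahrr-KO M3 (0.0208), *Rgs1* without Ahrr-KO F1 (0.0243) and *Rgs3* without Ahrr-KO F2 (0.014). Over the alternatives the adjusted p ran from 1.58e-04 to 0.113 for *Rgs14*, 0.0208 to 0.15 for *Rgs10*, 0.0243 to 0.536 for *Rgs1*, 0.014 to 0.58 for *Rgs3*, 0.00204 to 0.0667 for *Rgs2* and 0.00691 to 0.0644 for *Rgs18*. The count of 1708 genes fell to 907 without Ahr-KO F1, 970 without Ahr-KO F2, 839 without Ahr-KO M1, 933 without Ahr-KO M2, 818 without Ahr-KO M3, 1001 without Ahrr-KO F3 and 923 without Ahrr-KO M3, and rose to 2574 without Ahrr-KO F1. Of the 1708 genes 46% were higher under the Ahr-KO label, and after quantile normalization 56.3% of 1854 were.

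Between males and females, with genotype as covariate, 1 of 8 members was called, where 351 of 11468 genes (3.06%) were called, 69 higher and 282 lower in males. That member was *Rgs2*, higher in males by 0.63 (SE 0.14, adjusted p = 0.0235), with 6 of 9 males above every female. No member separated the 9 males from the 9 females without overlap, as 0.148% of genes did. The sexes did not overlap in WT or under the Ahr-KO label, and did overlap under the Ahrr-KO label (12.27 to 13.15 in males, 11.87 to 12.83 in females). The call ended with no minimum mean (adjusted p = 0.0549), after median centring (0.0519), without the genotype covariate (0.115), without WT M3 (0.051) and without Ahr-KO M1 (0.0536), in a range from 1.87e-04 to 0.115 over 27 alternatives. Among 15 immediate early genes, summed level 61937 to 75526 normalized counts in WT and most abundant *Dusp1*, 5 were called lower in males. They were *Jun*, *Ier3*, *Nr4a1*, *Atf3* and *Hspa1b*, named after their values were seen. Whether the response of these genes and of *Rgs2* to handling of the cells differed between the sexes was not tested.

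The count of 351 genes depended on single samples. It was 733 without WT F1, 181 without WT F2, 595 without WT M1, 160 without WT M3, 205 without Ahr-KO F1, 159 without Ahr-KO F2, 142 without Ahr-KO M1, 180 without Ahr-KO M2 and 211 without Ahr-KO M3. It was 206 without Ahrr-KO F1, 173 without Ahrr-KO F2, 577 without Ahrr-KO F3 and 188 without Ahrr-KO M3.

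In WT alone, limma called 0 of 8 members between 3 males and 3 females at an adjusted p below 0.1, where 5 of 11409 genes (0.0438%) were called, 8 without WT F2 and 13 without WT M3. At an unadjusted p below 0.05 there were 2 members and 405 genes, and voom called 0 members. Those 2, *Rgs2* and *Rgs18*, did not overlap between the sexes, as for 9.01% of the genes tested. *Rgs2* was higher in males by 0.89 and *Rgs18* by 0.79, each with an adjusted p of 0.998 (limma) and an exact two-sided permutation p of 0.1, the smallest that 3 against 3 samples can give. For *Rgs18* the sexes overlapped under the other labels, with male minus female differences of 0.10 (Ahr-KO) and 0.05 (Ahrr-KO). A test of genotype by sex called 0 of 8 members and 0 of 11468 genes (0%) with limma, with 0 members and 440 genes at an unadjusted p below 0.05 and 0 of either with voom. Adjusted p of the members lay between 0.864 and 0.938 in that test over 18 samples.

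Other parts of the G protein cycle were read from gene lists. Of 15 further RGS genes only *Rgs5*, known from pericytes, was above the minimum mean, and it was not called in any comparison of genotype labels. Of 9 G protein alpha genes tested between the mutant labels, where 14.9% of all genes were called, *Gnaq* and *Gnal* were higher and *Gna11* was lower under the Ahr-KO label. *Gnas*, which encodes the alpha subunit that stimulates adenylyl cyclase and was the most abundant of them, was not called between any genotype labels. Among 8 beta and gamma genes tested between Ahr-KO and WT, where 8.84% of all genes were called, *Gngt2*, which encodes a gamma subunit, was the only one called, with a difference of -0.53 (SE 0.11, adjusted p = 0.0044), and *Gnb1*, the most abundant, was not called. Between the samples labelled Ahrr-KO and WT, limma called 0 of 84 genes of the 8 pathway lists, where 9 of 11546 genes (0.0779%) were called. At an unadjusted p below 0.05 there were 9 of the 84 and 853 of the 11546 genes. Voom called 0 of the 84.

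Receptor kinases and arrestins act on the same receptors upstream of RGS proteins. Among 11 tested, *Grk3*, a receptor kinase gene, was higher under the Ahr-KO label than in WT by 0.52 (SE 0.12, adjusted p = 0.00969), and *Arrb1*, which encodes an arrestin that uncouples receptors, was lower, at 10.47 against 11.27 (difference -0.80, SE 0.12, adjusted p = 3.65e-04). Both separated the 6 samples of each group without overlap. Over all genes 8.84% were called in that comparison and 4.51% did not overlap. *Arrdc3*, the most abundant of that list, was not called. Of 9 other RGS domain genes tested, 1 was called higher under the Ahr-KO label than in WT. Between the mutant labels, where 14.9% of all genes were called, 2 of the 9 were higher under the Ahr-KO label. *Akap10*, which encodes an anchor of protein kinase A with RGS domains, was called only between the mutant labels (0.47, adjusted p = 0.0331).

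Among 9 regulators of alpha subunits tested between Ahr-KO and WT, *Gpsm1*, with GoLoco motifs like *Rgs14*, was higher under the Ahr-KO label than in WT by 0.49 (SE 0.11, adjusted p = 0.0116) and *Nucb2*, the most abundant, by 0.53 (SE 0.13, adjusted p = 0.0174). Between the mutant labels, where 14.9% of all genes were called, 2 of the 9 were higher under the Ahr-KO label. They were *Nucb2* (1.06, adjusted p = 0.00291) and *Ric8b* (0.42, adjusted p = 0.0304), the latter called only there. Of 14 effectors tested, 3 were higher under the Ahr-KO label than in WT, where 8.84% of all genes were called. These were *Plcb2* (0.39, adjusted p = 0.0375), the most abundant of them and a phospholipase target of Gq and of beta-gamma dimers, *Pik3cg* (0.45, adjusted p = 0.0103) and *Prex1* (0.42, adjusted p = 0.0313), both activated by beta-gamma dimers. Of the 14 effectors 4 were called higher and 1 lower under the Ahr-KO label than under the Ahrr-KO label. *Plcb2* (0.68), *Pik3cg* (0.71) and *Prex1* (0.52) were among the higher ones. The adenylyl cyclases *Adcy7* (0.87, adjusted p = 0.0131) and *Adcy6* (-0.87, adjusted p = 0.0265) were called only between the mutant labels.

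Of 21 Gi-coupled receptors tested, 3 were higher and 3 lower under the Ahr-KO label than in WT, where 8.84% of all genes were called. Over the 8 pathway lists 15 of 82 genes tested were called in that comparison. The higher ones were *Hcar2* (1.13, adjusted p = 0.00286), *Cxcr4* (0.79, adjusted p = 0.0402) and *Cxcr2* (0.65, adjusted p = 0.0198), receptors for butyrate and niacin, for CXCL12 and for neutrophil-attracting chemokines. The lower ones were *Ccr1* (-1.12, adjusted p = 0.00221), *Ptafr* (-1.01, adjusted p = 0.00214), which encodes the receptor for platelet-activating factor, and *Ccr9* (-0.60, adjusted p = 0.0377), a gut-homing receptor. *Ccr3*, the eotaxin receptor and the most abundant of the list, was not called (0.04, adjusted p = 0.902). Between the mutant labels, where 14.9% of all genes were called, 4 were higher, *Hcar2*, *C3ar1*, *P2ry12* and *Adora3*, and 3 lower, *Ccr1*, *Ptafr* and *Gpr35*, under the Ahr-KO label. Between the sexes 3 of 83 pathway genes tested were called, where 3.06% of all genes were, namely *Adora3* (0.52, adjusted p = 0.0302), higher in males, and *Ptafr* (-0.74, adjusted p = 0.0392) and *Hcar2* (-0.96, adjusted p = 0.00778), lower in males.

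Likeness between genes was read from the 18 samples after removing the mean of each genotype and sex, as a description over 5359 genes compared, in samples that share depth and composition. The genes most like *Rgs1* were *Gpcpd1*, *Fyb* and *Samd9l* (Pearson r of 0.95 for each), those most like *Rgs2* were *Ptpn22* (0.96), *Hacd4* (0.96) and *Sla* (0.95), and those most like *Rgs19* were *Mto1* (0.95), *Arid1a* (0.92) and *Ptpn7* (0.91). Spearman correlations of these pairs lay between 0.83 and 0.96, and r without the 2 farthest samples between 0.78 and 0.95.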

How the data were processed

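RNA of sorted small intestinal eosinophils was sequenced in 18 samples, 6 each labelled WT, Ahr-KO and Ahrr-KO, with 3 males and 3 females in each. The library kit (NuGEN Ovation RNA-Seq System V2) is not strand-specific, so overlapping genes on opposite strands cannot be told apart. Single-end reads were aligned to GRCm38 and analysed with DESeq2 by the study's authors, and the submitters' notes name RSEM 1.3.0, STAR 2.5.2, DESeq2 and R 4.0.3. The table deposited by the authors holds variance-stabilized log2 expression values for 22708 genes, which entered the fits unchanged. A gene without any read has the value 5.02, the smallest in the table. Inverting the transformation returned whole numbers everywhere (100% of values within 0.0001, largest deviation 3.6e-08), and these are the counts given. Total counts per sample lay between 3842977 and 8149200 in WT, 6581818 and 10284124 under the Ahr-KO label, and 8788867 and 12046933 under the Ahrr-KO label, so few reads weigh more heavily on the WT values. Genes were identified by Entrez ID.

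Differences were fitted with limma 3.58.1 in R 4.3.3 (linear model per gene, mean-variance trend, Benjamini-Hochberg over all genes tested) on genes with a mean at least 1 above the lowest value in the fitted samples. Pairs of genotype labels had sex as covariate and the sexes had genotype, at an adjusted p below 0.05. The sexes in WT had no covariate, at 0.1, and genotype by sex was an F test over both interaction terms. Two-sided exact permutation tests compared 3 against 3 samples. Standard errors (SE) are those of limma. The procedure was tested on simulated data, whose outcome is not given here. Levels between genes are normalized counts per kilobase of the exon union in GENCODE, and marker lists are summed normalized counts. Alternatives were no minimum mean, a minimum of 3, quantile normalization, median centring, no trend, log2 of the normalized count plus 1, voom on counts, no covariate, the replicate number as a block, all 18 samples in 1 fit and each sample left out in turn. Left out after seeing the data were Ahrr-KO F3, M1 and M3, the samples with the highest fibroblast sums, and WT F3 and Ahr-KO F3 together. Leaving out single samples for the sexes in WT and for genotype by sex was not planned in advance either.

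The members and the gene lists were chosen with earlier results of these data known. Named genes are the 9 members, of each pathway list (further RGS genes, G protein alpha, beta and gamma genes, receptor kinases and arrestins, other RGS domain genes, alpha subunit regulators, effectors, Gi-coupled receptors) those called between genotype labels and the most abundant, and the 3 genes most like each of the 3 highest members. The result of 1 gene of the other RGS domain genes that this rule names is not given, so that list is incomplete in the text. That gene was the most abundant of its list. It was called higher under the Ahr-KO label than in WT and than under the Ahrr-KO label. Promoters come from RefSeq. Tables were made in Python 3.11.15 (pandas 2.3.3, numpy 2.4.6; scipy 1.17.1) and drawn by matplotlib 3.10.9.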

Additional observations from a re-analysis of the deposited data

Results flagged for a closer look

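None of the 27 groups of member values (9 members under 3 labels, 6 samples each) held a sample far from the others by Dixon's test at 95%. Of 54 groups of other values (checked genes, totals, genes with counts and marker sums) 11 did, and chance gives about 1 in 20. WT F3 had 20244 genes with a count above 0 where the other WT samples had between 15146 and 16526, and Ahr-KO F3 had 19694 against 15479 to 16704. The same samples stood out in marker sums (normalized counts). In WT F3 the T cell and innate lymphocyte list summed to 122 (others 2.56 to 35.2), the mast cell and basophil list to 43.4 (2.37 to 15.5) and the fibroblast list to 202 (49.8 to 91.2). In Ahr-KO F3 the neutrophil list summed to 2957 (782 to 1109) and the T cell list to 55.6 (4.55 to 15.9). No gene of the T cell list or of the mast cell and basophil list was above the minimum mean. Of 6 mast cell and basophil genes 5 were at 0 in at least 9 samples. WT F3 also had the lowest total count of the 18 samples (3842977). The pericyte and muscle list reached 796 in WT F2 (295 to 450) and 1310 in Ahrr-KO M1 (308 to 652). The pancreatic acinar list reached 499 in Ahr-KO M1 (27.5 to 67.8) and 1931 in Ahrr-KO M1 (26.9 to 173). WT samples ran from 62.2 to 4109 on that list, and 3 of its 7 genes tested were called lower under the Ahr-KO label than in WT, where 8.84% of all genes were called, *Ctrb1*, *Cela2a* and *Prss2*, named after their values were seen. Without WT F3 and Ahr-KO F3, left out after the data had been seen, *Rgs10* (-0.69, adjusted p = 0.0159) and *Rgs14* (-0.94, adjusted p = 0.00522) were still called between Ahr-KO and WT, and *Rgs2* (adjusted p = 0.0954) and *Rgs18* (adjusted p = 0.0947) were not.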

How the results depend on the processing

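Between the samples labelled Ahr-KO and WT *Rgs10* and *Rgs14* kept their direction and call under every alternative in which they were tested, *Rgs2* kept its call in 10 of 23 and *Rgs18* in 14 of 23, and no called member changed sign. The causes of the changes in count and sign were not tested. Alternatives that left out samples had fewer samples, and those with another minimum tested another set of genes. *Rgs10* and *Rgs12* gave no value with a minimum mean of 3.

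The 1003 genes called between Ahr-KO and WT became 623 with no minimum mean, 553 with all 18 samples in the fit and 586 without WT F3 and Ahr-KO F3, and 623 to 1124 without single samples. The 4 members called became 2 under these 3 alternatives and without the sex covariate, and 2 to 4 without single samples. The 9 genes called between Ahrr-KO and WT became 4 with no minimum mean, median centring, log2 of the normalized count plus 1, voom or without Ahrr-KO F3, M1 and M3, 5 with a minimum of 3 or quantile normalization, and 14 with all 18 samples, with 4 to 25 without single samples. The 1708 genes called between Ahr-KO and Ahrr-KO became 713 with no minimum mean, when 0 members were called, 828 with a minimum of 3, 994 without the sex covariate and 626 without Ahrr-KO F3, M1 and M3, and 818 to 2574 without single samples, with 2 to 4 members called. The 351 genes called between the sexes became 163 with no minimum mean and 211 without the genotype covariate, and 142 to 733 without single samples. The member called became 0 under these alternatives and after median centring, and 0 to 1 without single samples. The 5 genes called between WT sexes became 11 with no minimum mean and 1 with a minimum of 3, and 5 to 13 without single samples. Genotype by sex called 0 genes under every alternative.

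Members not called changed sign as follows. Quantile normalization gave -0.18 for *Rgs1* between Ahr-KO and WT, and between the sexes 0.29 for *Rgs1*, 0.03 for *Rgs3*, -0.02 for *Rgs10* and 0.04 for *Rgs19*. Without Ahrr-KO F3, M1 and M3 the differences between Ahrr-KO and WT were 2.13e-04 for *Rgs1*, 0.01 for *Rgs2*, 0.16 for *Rgs3*, 0.33 for *Rgs14* and 0.11 for *Rgs18*, and those between the sexes 0.07 for *Rgs1*, 0.07 for *Rgs3*, 0.14 for *Rgs14* and 0.02 for *Rgs19*. Without single samples *Rgs19* ran from -0.06 to 0.02 between Ahr-KO and WT, and *Rgs3* from -0.23 to 0.02 and *Rgs18* from -0.24 to 0.04 between Ahrr-KO and WT. Between the sexes the ranges were -0.17 to 0.08 for *Rgs1*, -0.07 to 0.09 for *Rgs3*, -0.03 to 0.12 for *Rgs10*, -0.12 to 0.07 for *Rgs14* and -0.08 to 0.06 for *Rgs19*, and between WT sexes -0.08 to 0.73 for *Rgs1*.

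The samples share replicate numbers without a stated link. Deviations of samples with the same number correlated from -0.27 to 0.47 between Ahr-KO and WT (1 of 6 above 0.1), from -0.59 to 0.33 between Ahrr-KO and WT (3 of 6) and from -0.34 to 0.33 between Ahr-KO and Ahrr-KO (2 of 6), and in each 2 of 6 samples correlated best with their own number. With the replicate number as a block in place of sex 918 genes and 3 members (*Rgs10*, *Rgs14* and *Rgs18*, with *Rgs2* at an adjusted p of 0.0658) were called between Ahr-KO and WT, 4 genes and 0 members between Ahrr-KO and WT, and 1946 genes and 3 members between Ahr-KO and Ahrr-KO.

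With between 3842977 and 8149200 counts per WT sample, *Rgs16* had between 2 and 9 counts there and was not tested.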

Other observations

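Marker lists printed nowhere else were read as summed normalized counts. The macrophage and dendritic cell list lay between 695 and 1405 in WT, 228 and 1715 under the Ahr-KO label, and 527 and 2718 under the Ahrr-KO label. The B and plasma cell list, with *Jchain* as its most abundant gene, lay between 229 and 1775, 96.1 and 740, and 333 and 6045 in the same order. The endothelial list, of which *Pecam1* supplied 95.9%, lay between 2576 and 3835 in WT and between 1894 and 2339 under the Ahr-KO label. Under the Ahrr-KO label it lay between 1769 and 3817.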
